A study of Mus musculus with 8 samples.

Results

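Transcripts of the proteasome subunits were compared in LSK cells of mice with chronic myeloid leukaemia (CML) that kept or had lost SIRT1, an NAD-dependent deacetylase. LSK cells are bone marrow cells that lack lineage markers and carry Sca-1 and c-Kit, a fraction that holds stem cells and early progenitors. All animals were C57BL/6 mice sorted 10 weeks after disease induction, 4 controls lacking cre and 4 cre-positive mice with SIRT1 deleted, which the series' design text calls biological replicates. Both groups carried the disease, so there is no healthy reference. The sources used here do not name the Cre driver, the floxed allele, the ages of the mice or the way the disease was induced. The members are the 43 protein-coding genes, of 48795 genes in the deposited count table, whose symbol is Psma, Psmb, Psmc, Psmd or Psme followed by a number. They were 8 alpha (Psma), 8 constitutive or tissue-specific beta (Psmb), 3 immunoproteasome beta (Psmb8, Psmb9 and Psmb10), 6 ATPase (Psmc), 14 non-ATPase (Psmd) and 4 activator (Psme) genes.

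The proteasome is the protease that degrades proteins tagged with ubiquitin. Its barrel-shaped core has alpha rings, which gate the entrance, and beta rings, which hold the cutting sites. A regulatory particle caps the core, its ATPases unfolding the substrate and its non-ATPase subunits binding and removing ubiquitin. Activators of the Psme family can open the core in place of that particle. In blood cells and after interferon, Psmb8, Psmb9 and Psmb10 replace the catalytic subunits Psmb5, Psmb6 and Psmb7 in newly built cores, giving the immunoproteasome that supplies peptides for class I antigen presentation. Proteasome genes are known to be induced together by NRF1, the product of Nfe2l1, through antioxidant response elements.

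Promoter windows from 250 bases before to 50 bases after the start site were found in RefSeq (GRCm38.p6) for 36 of the 43 genes. The windows of Psmb5 (chr14:54617946-54618245, minus strand) and Psmb6 (chr11:70525107-70525406, plus strand) are shown because these constitutive catalytic genes hold a core antioxidant response element, TGACNNNGC, marked in capitals, with its first base at positions -47 and -9 from the start site. Those of Psmb9 and Psmd13 are shown because each is shared with a gene on the other strand whose values bear on the counts. For Psmb9 (chr17:34187281-34187580, minus strand) capitals mark a GC box, GGGCGG, and a CCAAT box, which lies on the opposite strand and reads ATTGG here. For Psmd13 (chr7:140882144-140882443, plus strand) capitals mark the 184 bases shared with a window of Sirt3. The Psmb9 window shares 275 bases with that of Tap1.
Psmb5: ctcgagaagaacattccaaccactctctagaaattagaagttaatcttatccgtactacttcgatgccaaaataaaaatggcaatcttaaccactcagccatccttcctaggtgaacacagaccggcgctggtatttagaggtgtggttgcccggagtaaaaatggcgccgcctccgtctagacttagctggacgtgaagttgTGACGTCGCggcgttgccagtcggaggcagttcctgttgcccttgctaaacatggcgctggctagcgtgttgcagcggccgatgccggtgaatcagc
Psmb6: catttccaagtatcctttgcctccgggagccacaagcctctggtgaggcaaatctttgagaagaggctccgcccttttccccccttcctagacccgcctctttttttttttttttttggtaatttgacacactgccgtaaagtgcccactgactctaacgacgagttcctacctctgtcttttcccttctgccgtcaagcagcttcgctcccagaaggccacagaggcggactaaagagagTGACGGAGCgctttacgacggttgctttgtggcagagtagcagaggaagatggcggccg
Psmb9: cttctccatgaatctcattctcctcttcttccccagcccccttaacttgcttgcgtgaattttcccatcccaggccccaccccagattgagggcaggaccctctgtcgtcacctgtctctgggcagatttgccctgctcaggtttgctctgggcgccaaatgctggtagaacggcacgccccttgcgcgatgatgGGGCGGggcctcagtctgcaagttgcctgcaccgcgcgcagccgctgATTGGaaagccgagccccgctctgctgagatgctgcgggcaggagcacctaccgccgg
Psmd13: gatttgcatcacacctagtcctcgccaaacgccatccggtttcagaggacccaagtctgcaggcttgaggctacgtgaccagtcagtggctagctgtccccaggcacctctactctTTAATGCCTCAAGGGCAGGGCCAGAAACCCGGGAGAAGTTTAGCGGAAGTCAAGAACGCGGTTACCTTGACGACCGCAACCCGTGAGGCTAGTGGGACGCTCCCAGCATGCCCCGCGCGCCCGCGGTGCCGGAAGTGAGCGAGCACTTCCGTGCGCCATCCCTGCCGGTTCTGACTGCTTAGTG
Over both strands, the element TGACNNNGC was in the windows of 6 of the 36 genes (16.7%; Psmb5, Psmb6, Psmc6, Psmd9, Psmd12 and Psme4) and of 14.0% of the 27025 genes with a window. A core interferon-stimulated response element, GAAANNGAA, was in 6 windows (16.7%), against 9.76% of all genes, and not in that of Psmb9. Psmb8 and Psmb10 were also not among these 6 genes. Since 7 members had no window, absence of the element is not shown for Psmb8 and Psmb10. The CCAAT box was in 14 windows (38.9%) and in 41.1% of all genes, and the GC box in 22 (61.1%) and in 38.2% of all genes. These matches describe letters, not bound sites, and overlaps between the motifs were allowed.

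Gene counts totalled 18252562 to 34280925 per library. Detected genes were fewest in control 2 (15316) and Sirt1-deleted 1 (16154), against 16670 to 20342 in the others. Sirt1 itself had 147 to 498 counts per control library and 218 to 441 per Sirt1-deleted library, with a log2 fold change of -0.26 (edgeR adjusted p = 0.797). A sum over the whole gene does not show a deletion of exons, so it does not check the labels. The LSK markers Kit, Ly6a, Cd34, Flt3, Meis1, Hlf and Mecom all had counts, and their summed level was 775 to 1257 CPM (counts scaled to a common library total) in controls and 1118 to 1339.9 CPM in Sirt1-deleted libraries. Of these 7 markers, 6 were higher and 1 lower at an unadjusted p under 0.05, 1 was called, and the median log2 fold change was 1.18. The part of this shift in the proteasome values was not tested. Fewer cells of a type and less RNA per cell cannot be told apart in such bulk samples.

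Most proteasome subunit genes had lower mean transcript levels in Sirt1-deleted LSK cells, but no single gene passed the test. The median change was -23.8% for the core and -18.3% for the regulatory particle. As log2 fold changes these medians were -0.39 and -0.29, and each became -0.22 with the trend on gene length and GC content removed. Of all gene counts, proteasome transcripts took 1.31, 1.44, 1.38 and 1.56% in the 4 controls and 1.195, 1.24, 1.13 and 1.13% in the 4 Sirt1-deleted libraries. The groups did not overlap, with means of 1.42 ± 0.107% and 1.17 ± 0.0544% (SD, n = 4 each). The core, immunoproteasome subunits included, averaged 0.778 ± 0.0548% of counts in the control group and 0.616 ± 0.0459% after deletion. The regulatory particle averaged 0.530 ± 0.0488% and 0.461 ± 0.0229% in the same order. Its groups overlapped, with control 1 at 0.463% and Sirt1-deleted 2 at 0.491%, whereas those of the core did not. The regulatory particle is taken here as all Psmc and Psmd genes, with the assembly chaperones Psmd5, Psmd9 and Psmd10 included.

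Of the 43 members, 42 passed the filter on low counts and were tested. The median log2 fold change was -0.34 (a change of -21.3%) and 37 were negative, whereas over all 14178 genes tested the median was 0.06 and 46.1% were negative. With edgeR's quasi-likelihood test and Benjamini-Hochberg adjustment over all genes, 0 members were called lower and 0 higher at an adjusted p under 0.05, beside 0.0353% and 0.0494% of all genes. At an unadjusted p under 0.05, 24 members were lower and 1 was higher, where 8.60% and 7.55% of all genes were. All 4 Sirt1-deleted libraries lay below all 4 controls for 16 members, against 6.44% of all genes, and above them for 0, against 6.64%. DESeq2 called 13 members lower (4.66% of all genes) and limma-voom with quality weights called 15 (5.38%), 11 of them shared. These 11 were Psma7, Psmb1, Psmb3, Psmb4, Psmb5, Psmb6, Psmb10, Psmc1, Psmd4, Psmd6 and Psmd7. In edgeR without Sirt1-deleted 1, 9 members were called lower (2.52% of all genes), namely Psma3, Psmb2, Psmb3, Psmb4, Psmb5, Psmb6, Psmb8, Psmb10 and Psmd4, and without both libraries with the fewest detected genes 6 were (1.61%).

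**Figure D1:**
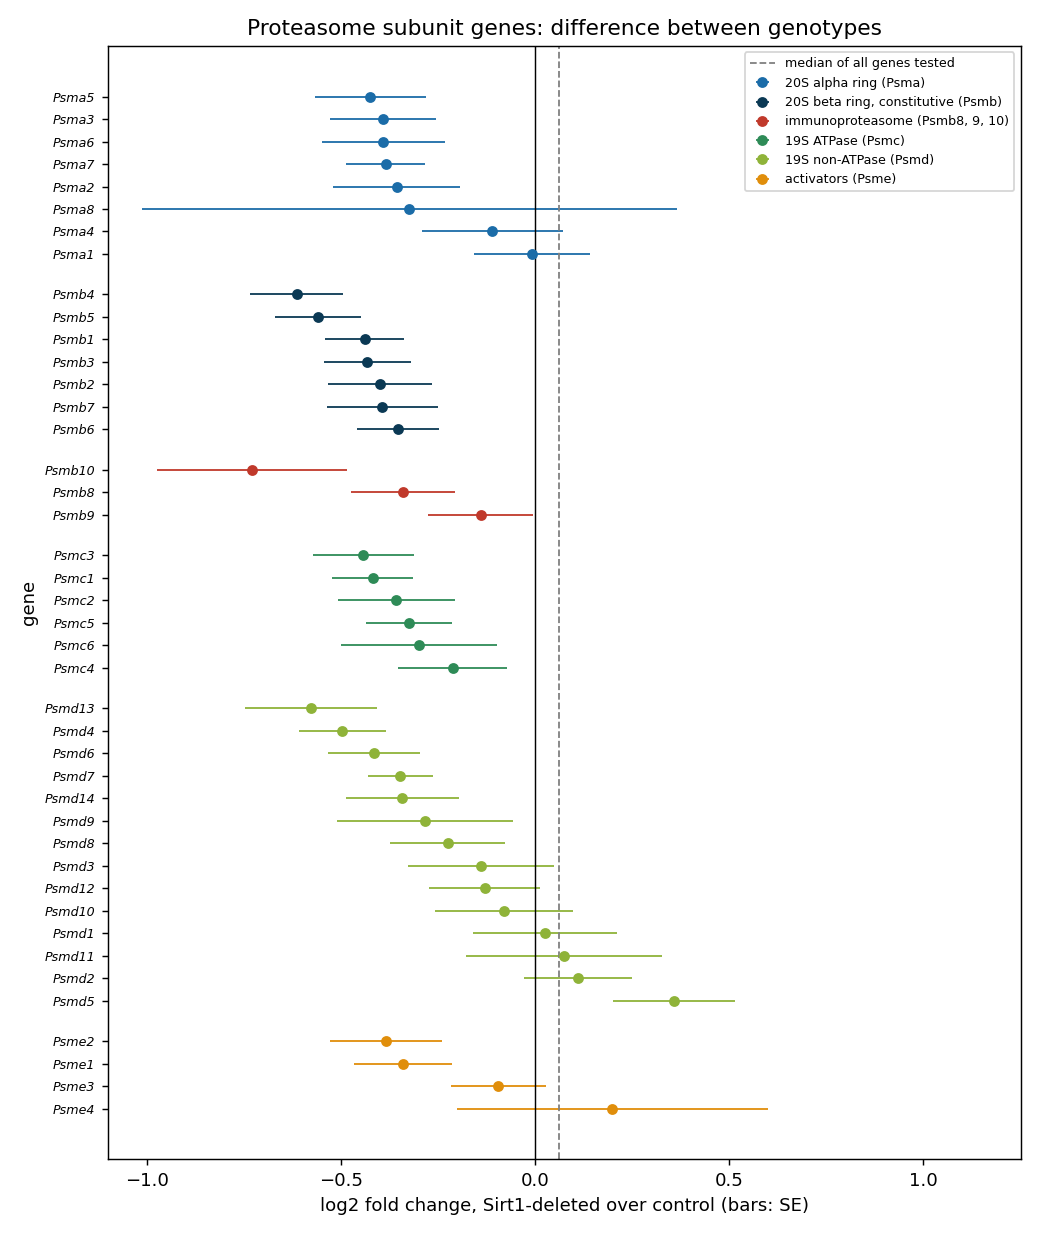
Log2 fold change, Sirt1-deleted over control, of the 42 tested subunit genes (points; bars are standard errors), grouped and coloured by part of the proteasome; the dashed line is the median of all genes tested, 0.06. Every alpha, beta, immunoproteasome and ATPase gene lies left of 0, Psma1 at -0.01, whereas 4 non-ATPase genes and Psme4 lie right of it.

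The libraries differed in which genes were low. Relative to the mean of the controls, the median member was at -0.06, 0.05, -0.04 and 0.11 on the log2 scale in controls 1 to 4 and at -0.31, -0.34, -0.35 and -0.34 in Sirt1-deleted libraries 1 to 4. Control 4 had the highest value of the 8 libraries for 21 members and control 2 for 11. The column of control 4 was matched by the start of its name, since it ends in BP where the title ends in BM. Without control 4 the median log2 fold change of the members was -0.29, and 34 were negative. The lowest value fell to Sirt1-deleted 1 for 13 members and to Sirt1-deleted 4 for 12. Each Sirt1-deleted library was below all controls for 24 to 27 of the 42 members and above all of them for 1 to 3. The like shares over all genes were not counted, so these numbers describe the libraries only.

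**Figure D2:**
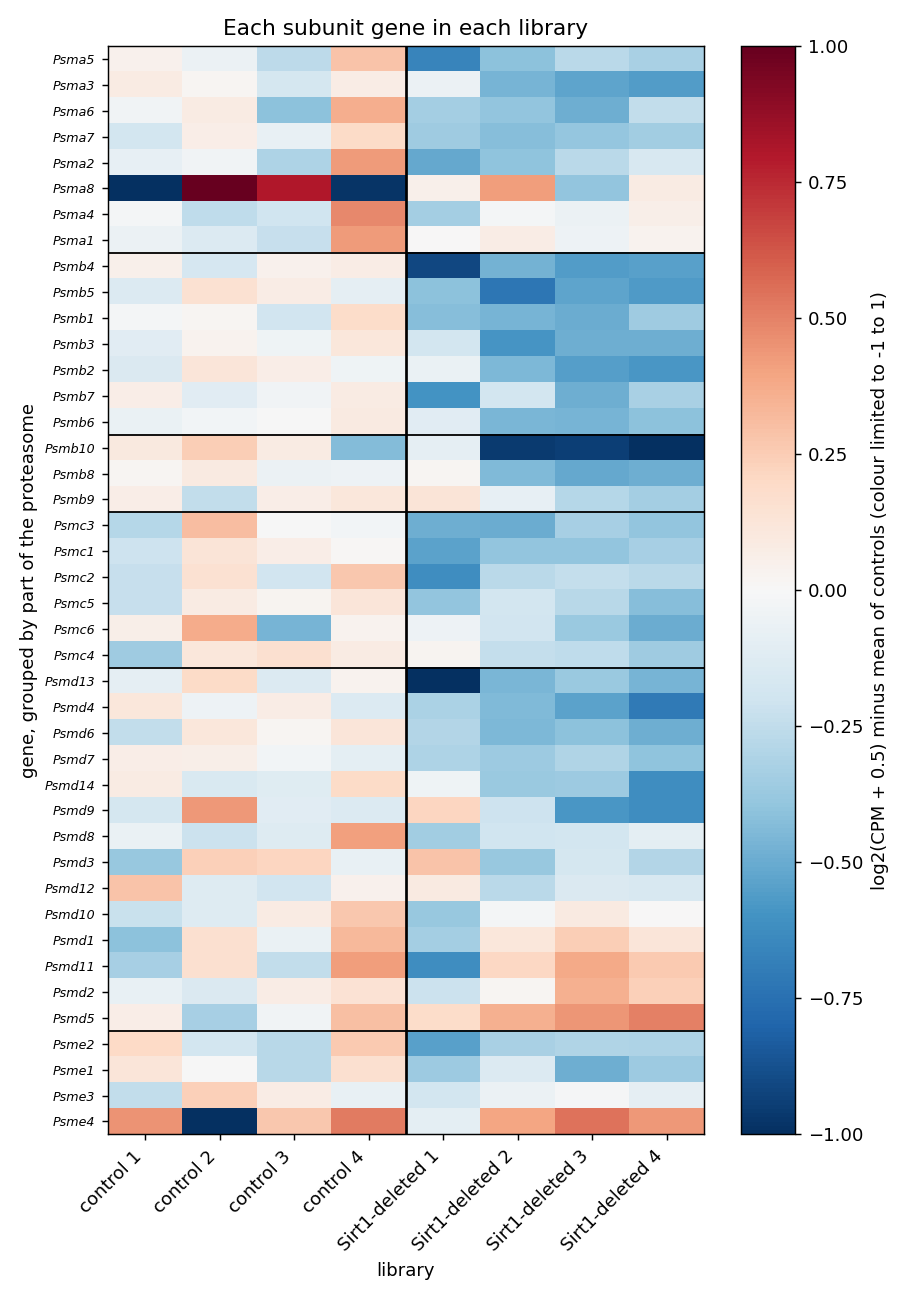
Log2(CPM + 0.5) of each tested subunit gene (rows, grouped by part) in each library (columns), minus the mean of the 4 controls; blue is lower and red higher, with colours limited to -1 and 1. Beta and ATPase rows are blue in most Sirt1-deleted libraries, Sirt1-deleted 1 is near the controls for Psmb8, Psmb9, Psmb10, Psmb2 and Psmb6, and Psma8 and Psme4, the lowest tested genes, vary most among controls.

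The alpha genes had similar negative values except Psma1 and Psma4. These 8 genes had a median log2 fold change of -0.37, all 8 were negative, 4 passed an unadjusted p of 0.05 and 2 had groups that did not overlap. Psma7, an alpha-ring subunit and the most abundant of them per length, was at 901, 1071, 973 and 1171 CPM in controls and 802, 764, 783 and 804 CPM in Sirt1-deleted libraries. All Sirt1-deleted libraries were below all controls, and the log2 fold change was -0.38 ± 0.10 (standard error; adjusted p = 0.138 in edgeR). Psma5 was at 223, 208, 181 and 264 CPM in controls and 137, 163, 179.5 and 173 CPM in Sirt1-deleted libraries, which also did not overlap, although control 3 and Sirt1-deleted 3 were nearly equal. Psma3 was at 227, 217, 190 and 226 CPM in controls and 205, 155, 149 and 146 CPM in Sirt1-deleted libraries, where the first library was within the control range. Log2 fold changes were -0.42 ± 0.14 and -0.39 ± 0.14 (adjusted p = 0.198 and 0.209). Psma6 (-0.39) and Psma2 (-0.36) were of similar size. Psma1 had a log2 fold change of -0.01 and Psma4 of -0.11, with control 4 the highest library for both. Psma8, the germ-cell counterpart of Psma7, was near the bottom of the tested range at 1.51 to 9.73 CPM in controls and 2.73 to 5.19 CPM in Sirt1-deleted libraries, and controls 2 and 3 were above all Sirt1-deleted libraries while controls 1 and 4 were below them.

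The constitutive beta genes were lower throughout. The 7 that were tested had a median log2 fold change of -0.43 (a change of -25.9%), all 7 were negative with an unadjusted p under 0.05, and groups did not overlap for 6. Psmb4, a structural beta subunit, was at 398, 342, 397 and 405 CPM in controls and at 205, 278, 260.4 and 263 CPM in Sirt1-deleted libraries. It had the smallest p of all members (log2 fold change -0.61 ± 0.12, edgeR adjusted p = 0.0949). Psmb5, which carries the chymotrypsin-like site, was at 263, 323, 306 and 273 CPM in controls and 219, 175, 201 and 195 CPM in Sirt1-deleted libraries. The groups were again separate (-0.56 ± 0.11, adjusted p = 0.0950), but with the trend on gene length and GC content removed the log2 fold change was -0.20. Psmb1, a structural subunit, was at 425, 437, 377 and 488 CPM in controls and 320.3, 312, 305 and 336 CPM in Sirt1-deleted libraries (-0.44 ± 0.10, adjusted p = 0.106). Here the smallest distance between the groups was that between control 3 and Sirt1-deleted 4.

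The remaining catalytic genes differed in how far Sirt1-deleted 1 followed the others. Psmb6, with the caspase-like site, was at 911, 934, 951 and 1014 CPM in controls and 881, 695, 689 and 717 CPM in Sirt1-deleted libraries. Sirt1-deleted 1 was thus just under the controls and the other 3 well below (-0.35 ± 0.11, adjusted p = 0.163). Psmb7, with the trypsin-like site, was at 70.4, 61.9, 65.4 and 70.8 CPM in controls and 44.2, 59.1, 47.6 and 53.5 CPM in Sirt1-deleted libraries, and here Sirt1-deleted 1 was the lowest (-0.39 ± 0.14, adjusted p = 0.227). Its exons overlap those of Nek6 on the other strand, and reads on both genes are set aside as ambiguous. The same limit holds for Psmb5, Psmb8, Psma4, Psma5, Psmc3, Psmd1, Psmd3, Psmd9 and Psme1, whose exons also overlap those of other annotated genes. Psmb3 (-0.43) and Psmb2 (-0.40) completed the ring, the latter with Sirt1-deleted 1 at 616 CPM inside the control range of 584 to 700.4 CPM. Psmb11, the thymus-specific catalytic subunit, had 0 counts in every library, which allows up to 3 counts, or 0.0875 to 0.164 CPM by library total.

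Of the immunoproteasome genes, Psmb10 and Psmb8 were lower in 3 of the 4 Sirt1-deleted libraries and Psmb9 overlapped the controls. All 3 log2 fold changes were negative, with a median of -0.34, 2 passed an unadjusted p of 0.05, and 0 had separate groups. Psmb8 (chromosome 17, 34197721 to 34201454, in GRCm38) and Psmb9 (chromosome 17, 34181987 to 34187764) lie together in the major histocompatibility complex beside the transporter genes, and Psmb10 (chromosome 8, 105935735 to 105938444) lies elsewhere. Psmb10, which replaces Psmb7, was at 764, 847, 753 and 528 CPM in controls and 669.5, 366, 371 and 338 CPM in Sirt1-deleted libraries. Sirt1-deleted 1 lay inside the control range and the other 3 below it, giving the largest negative log2 fold change of the members, -0.73 ± 0.24 (edgeR adjusted p = 0.197). Psmb8, which replaces Psmb5, was at 1009, 1059.8, 956 and 959 CPM in controls and 1009, 732, 698 and 708 CPM in Sirt1-deleted libraries, with the same library inside the control range (-0.34 ± 0.13, adjusted p = 0.261). Without Sirt1-deleted 1 both were called by edgeR, with log2 fold changes of -1.06 and -0.53 (adjusted p = 0.0337 and 0.0335). Psmb9, which replaces Psmb6, was at 404, 324, 403 and 415 CPM in controls and 420.1, 363, 316 and 304 CPM in Sirt1-deleted libraries, a log2 fold change of -0.14 ± 0.13 (adjusted p = 0.661). Its exons overlap those of Tap1, the peptide transporter on the other strand, which was at 365 ± 61.8 CPM in controls and 412 ± 55.7 CPM in Sirt1-deleted libraries (adjusted p = 0.625).

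The balance between each immunoproteasome gene and the subunit it replaces was then compared within libraries, since such a ratio of counts does not depend on scaling. The ratio of Psmb8 to Psmb5 was 3.83, 3.29, 3.13 and 3.51 in controls and 4.62, 4.18, 3.46 and 3.63 in Sirt1-deleted libraries. Controls 1 and 4 lay within the range of the Sirt1-deleted libraries. The ratio of Psmb9 to Psmb6 was 0.443, 0.347, 0.424 and 0.410 in controls and 0.477, 0.522, 0.459 and 0.424 in Sirt1-deleted libraries, with Sirt1-deleted 4 under controls 1 and 3 and the other Sirt1-deleted libraries above all controls. The ratio of Psmb10 to Psmb7 was 10.9, 13.7, 11.5 and 7.46 in controls and 15.1, 6.20, 7.79 and 6.31 in Sirt1-deleted libraries, the highest and the 2 lowest values both coming from Sirt1-deleted mice. Mean log2 differences were 0.20, 0.21 and -0.37 in the same order, with two-sided exact permutation p of 0.171, 0.0857 and 0.371 (adjusted over the 3 ratios 0.257, 0.257 and 0.371). The smallest p these 70 assignments allow is 0.0286 before adjustment. A single ratio at that p cannot pass 0.05 after adjustment over the 3 ratios unless another ratio also reaches it. No ratio passed the threshold, but the test could not have called a change in a single ratio. Leaving out 1 library gave 0.126 to 0.265 for Psmb8 to Psmb5, 0.14 to 0.26 for Psmb9 to Psmb6, and -0.66 (without Sirt1-deleted 1) to -0.23 (without Sirt1-deleted 2) for Psmb10 to Psmb7. Leaving out Sirt1-deleted 4 (-0.24) also moved the last value by more than 1.5 times, and so did leaving out Sirt1-deleted 1 (0.126) for Psmb8 to Psmb5 and control 2 (0.14) for Psmb9 to Psmb6. These ratios were not adjusted for the trend on gene length and GC content. With it removed, log2 fold changes were -0.38 for Psmb8 and -0.20 for Psmb5, against -0.34 and -0.56 before, which turned their order. Psmb9 and Psmb6 were then at -0.20 and -0.21, against -0.14 and -0.35 before. Psmb10 and Psmb7 were at -0.55 and -0.28, against -0.73 and -0.39.

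**Figure D3:**
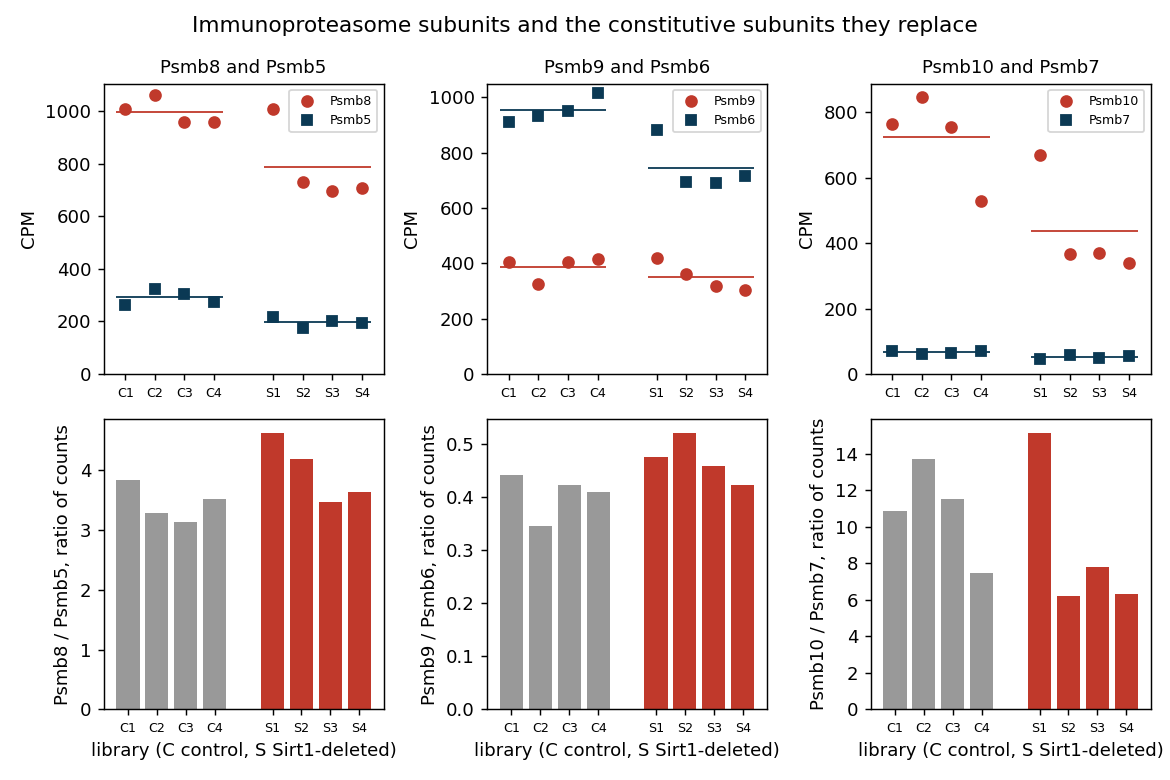
Top, CPM of each immunoproteasome gene (circles) and of the constitutive gene it replaces (squares) in each library, with group means as lines; bottom, the ratio of their counts per library (grey control, red Sirt1-deleted). Psmb8 and Psmb10 of Sirt1-deleted 1 are at 1009 and 669.5 CPM, inside the range of the controls, and the ratios overlap between genotypes in all 3 panels.

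Interferon induces these genes, so interferon response genes were read beside them. The 20 listed genes all had counts, 15 of the 20 log2 fold changes were negative, and 6 were lower at an unadjusted p under 0.05. Their summed level was 3073, 823, 902 and 1528 CPM in controls 1 to 4 and 930.1, 684, 874 and 886 CPM in Sirt1-deleted libraries 1 to 4. Control 1 was by far the highest in this sum. The part of interferon in the immunoproteasome values was not tested. Markers of plasma cells summed to 740 to 2040 CPM in controls and 449 to 5027 CPM in Sirt1-deleted libraries, all 8 with positive log2 fold changes and 0 of them called. Summed markers of neutrophils were 1723 to 4904 CPM in controls and 1096 to 2414 CPM in Sirt1-deleted libraries (7 of 8 negative), those of macrophages and dendritic cells 995 to 2827 and 838 to 1548 CPM (5 of 10), those of B cells 98.8 to 328 and 153 to 273 CPM (3 of 5), and those of mast cells and basophils 948 to 5265 and 240.2 to 970.1 CPM (6 of 6). T and NK cell markers summed to 687 to 836 CPM in controls and 502 to 594 CPM in Sirt1-deleted libraries, which did not overlap (9 of 9 tested negative). Among all genes tested, 6.44% were separate and lower and 46.1% were negative. Gzmb was counted both here and with mast cells and basophils. At an unadjusted p under 0.05 in edgeR, 4 neutrophil markers and 4 mast cell and basophil markers were lower. So were 2 T and NK cell markers and 1 of macrophages and dendritic cells, and 1 plasma cell marker was higher. Over all genes, 8.60% were lower and 7.55% higher at that p. Erythroid markers were at 1.33 to 67.4 and 4.09 to 37.2 CPM. The part of these cells in the proteasome values was not tested.

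The ATPases of the regulatory particle also had lower means. All 6 had negative log2 fold changes with a median of -0.34, 4 passed an unadjusted p of 0.05, and 3 had separate groups. Psmc1 was at 286, 362, 347 and 333 CPM in controls and 228, 252, 252 and 262 CPM in Sirt1-deleted libraries, which were all below the controls (-0.42 ± 0.10, edgeR adjusted p = 0.124). Psmc3 was at 478, 722, 582 and 573 CPM in controls and 415, 413, 461 and 443 CPM in Sirt1-deleted libraries, separate as well but with a wide spread among controls (-0.44 ± 0.13, adjusted p = 0.162). Psmc5 was at 282, 351, 337 and 360 CPM in controls and 251, 291, 273 and 246 CPM in Sirt1-deleted libraries, where Sirt1-deleted 2 exceeded control 1 (-0.33 ± 0.11, adjusted p = 0.201). Psmc2, Psmc6 and Psmc4 had log2 fold changes of -0.36, -0.30 and -0.21.

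The non-ATPase genes were split. Of these genes, 10 of the 14 had negative and 4 positive log2 fold changes, the median was -0.18, and 5 were lower and 1 higher at an unadjusted p under 0.05. Psmd4, a ubiquitin receptor, was at 505, 452, 492 and 424 CPM in controls and 375, 344, 323 and 286 CPM in Sirt1-deleted libraries, with separate groups (-0.50 ± 0.11, edgeR adjusted p = 0.106). Psmd7, the partner of the deubiquitinase subunit Psmd14, was at 409, 407, 384 and 365 CPM in controls and 315, 304, 316 and 295 CPM in Sirt1-deleted libraries. The groups were separate, and its standard error was the smallest of the members (-0.35 ± 0.08, adjusted p = 0.119). Psmd6, a lid subunit, was at 125, 160.2, 150 and 161 CPM in controls and 121, 109, 111 and 105 CPM in Sirt1-deleted libraries, separate only because Sirt1-deleted 1 was just below control 1 (-0.42 ± 0.12, adjusted p = 0.154). For Psmd14 itself the log2 fold change was -0.34 (adjusted p = 0.290).

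Psmd13, a lid subunit named here after its values were seen, had the largest negative log2 fold change of its part, -0.58 ± 0.17 (adjusted p = 0.162). It was at 305, 371, 295 and 333 CPM in controls and 150.2, 236, 252 and 235 CPM in Sirt1-deleted libraries, and Sirt1-deleted 1 was the lowest by far. Its exons overlap those of Sirt3, a mitochondrial sirtuin on the other strand, and the libraries do not mark strand. Sirt3 averaged 106 ± 24.2 CPM in controls against 117 ± 22.5 CPM after deletion. Its log2 fold change of 0.15 ± 0.20 (edgeR adjusted p = 0.777) turned sign in some alternatives.

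The 4 non-ATPase genes with positive values were Psmd1 and Psmd2, the scaffolds of the base, the lid subunit Psmd11, and Psmd5, an assembly chaperone that is not part of the finished particle. Psmd5 was at 91.1, 69.1, 85.2 and 108 CPM in controls and 98.9, 112, 118 and 124 CPM in Sirt1-deleted libraries, overlapping only through control 4 and Sirt1-deleted 1 (0.36 ± 0.16, edgeR adjusted p = 0.308). Psmd2 was at 402 ± 37.4 CPM in controls and 434 ± 74.2 CPM in Sirt1-deleted libraries, Psmd1 at 185 ± 39.3 and 188 ± 31.0 CPM, and Psmd11 at 103 ± 25.8 and 109 ± 29.4 CPM. Each of these 3 differed by less than the spread within groups, and each turned sign in at least 1 alternative. The other assembly chaperones, Psmd9 and Psmd10, had log2 fold changes of -0.28 and -0.08.

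Of the 4 activators, the interferon-inducible pair Psme1 and Psme2 had lower means in Sirt1-deleted libraries. For Psme3 and Psme4 the means differed by less than the SD of the controls. The median log2 fold change of the 4 was -0.22, 2 were lower at an unadjusted p under 0.05, and 1 had separate groups. Psme1, the alpha subunit of the PA28 cap, was at 531, 486, 402 and 544 CPM in controls and 379, 444, 347 and 380 CPM in Sirt1-deleted libraries. Sirt1-deleted 2 exceeded control 3 (-0.34 ± 0.13, edgeR adjusted p = 0.234). Psme2, its beta partner, was at 543, 415, 390 and 567 CPM in controls and 325, 378, 384 and 381 CPM in Sirt1-deleted libraries, separate by a small margin between control 3 and Sirt1-deleted 3 (-0.38 ± 0.14, adjusted p = 0.239). The ratio of their counts stayed between 0.904 and 1.18 in all 8 libraries. Psme2b, a near-identical copy of Psme2 outside the member rule, was at 39.5 ± 7.06 and 29.3 ± 2.85 CPM, and reads that fit both copies equally are counted for neither. Psme3, the nuclear PA28 subunit, was at 162, 228, 203 and 183 CPM in controls and 169, 185, 192 and 181 CPM in Sirt1-deleted libraries, wholly within the control range (-0.09 ± 0.12, adjusted p = 0.759). Psme4, the large nuclear activator PA200, was at 16.9, 4.86, 14.8 and 17.7 CPM in controls and 11.4, 16.2, 18.0 and 16.7 CPM in Sirt1-deleted libraries. Control 2 stood apart, and without it the log2 fold change of 0.20 became -0.12.

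Levels between genes were compared per kilobase of exon, as mean CPM per kilobase in controls. The 3 highest were Psmb2 (537), Psmb6 (509) and Psmb10 (424), followed by Psma7 (335), Psmb5 (324) and Psmb8 (295). The immunoproteasome genes thus ranked 3, 6 and 21 (Psmb9, 106) of 43 in the controls. At the bottom were Psmd5 (12.2), Psma8 (1.99) and Psme4 (1.62), and Psmb11 was at 0. These lengths take in every annotated exon, so a gene with long alternative exons can appear lower than its main transcript would.

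Fold change went with gene length. Across the 42 members the Spearman correlation of log2 fold change with exonic length was 0.46, and over 14152 tested genes it was 0.27 (genes are not independent replicates, and all come from the same 8 libraries). The 21 shorter members, up to 2808 bases, had log2 fold changes with a median of -0.39, and all 21 were negative, where the 3642 tested genes in that length range had a median of -0.15. The 21 longer members, from 2820 to 8382 bases, had a median of -0.28 with 16 negative, where 7428 genes in that range had a median of 0.14. The median of the members was thus below that of genes of like length in both ranges. With each library's trend on length and GC content removed, the median of the members was -0.21, that of all genes 0.04, and 35 of 42 members were negative, but only 14 were lower at an unadjusted p under 0.05. Of the negative members, 13 kept their sign but came more than 1.5 times closer to 0. Psmb5 went from -0.56 to -0.20 (edgeR adjusted p = 0.524), Psma5 from -0.42 to -0.16, Psma6 from -0.39 to -0.062, Psmb2 from -0.40 to -0.13 and Psmc5 from -0.33 to -0.080. Psmb4 (-0.49), Psmb10 (-0.55) and Psmd4 (-0.48) moved less. The share of alignments set aside as not unique ranged from 30.1 to 32.3% over the controls and from 24.1 to 30.9% over the Sirt1-deleted libraries, and its part was not tested.

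**Figure D4:**
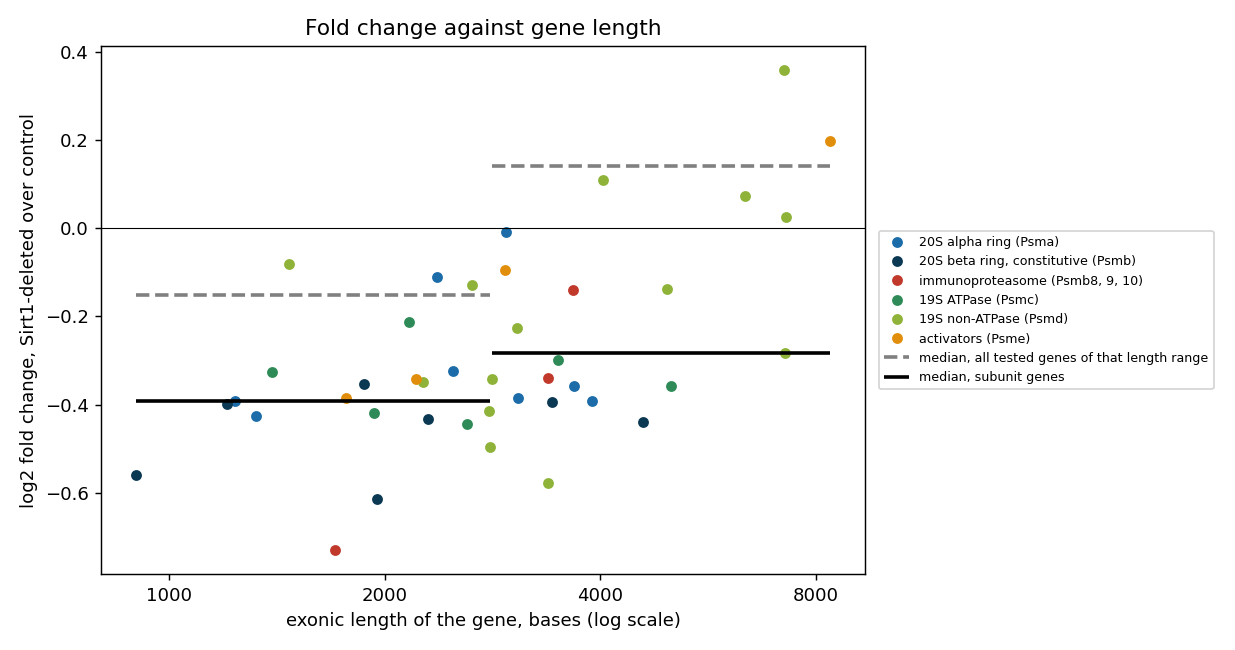
Log2 fold change of each tested subunit gene against its exonic length in bases (log scale), coloured by part; black lines are the medians of the shorter and longer members (-0.39 and -0.28) and dashed grey lines the medians of all tested genes in the same length ranges (-0.15 and 0.14). Both black lines lie below the grey ones, and the 5 members above 0 are all among the longer ones.

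Other genes of the ubiquitin-proteasome system were read from 5 lists, of which 0 genes were called by edgeR with all libraries. Of those named here, Uchl5, Sem1 and Ube2d3 were called lower in 4 alternatives each and Rps27a in 2. Vcp was called higher in 1, and Faf2, Mafg, Keap1, Tap2 and Psme2b in none. The alternatives use the same libraries, so repeated calls are not separate evidence. Of all genes, 4.66% were called lower in DESeq2 and 5.38% in limma-voom. Called lower were 2.52% without Sirt1-deleted 1 and 1.61% without both libraries with the fewest detected genes. Of 13 assembly factors and associated proteins listed, 12 were matched and tested, 10 had negative values, the median log2 fold change was -0.31, and 4 were lower at an unadjusted p under 0.05. Uchl5, a deubiquitinase of the regulatory particle, was at 172, 184, 178 and 151 CPM in controls and 149, 108, 111 and 95.1 CPM in Sirt1-deleted libraries, with separate groups (-0.56 ± 0.15, adjusted p = 0.140). Sem1, the smallest lid subunit, was at 545 ± 58.6 and 359 ± 105 CPM (-0.60 ± 0.19, adjusted p = 0.185). Sirt1-deleted 1, at 512 CPM, again lay within the controls for Sem1.

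The 14 tested genes for shuttles and for the segregase that extracts ubiquitinated proteins had log2 fold changes with a median of -0.04, with 8 negative, 0 lower and 2 higher at an unadjusted p under 0.05. Vcp, the ATPase that pulls ubiquitinated proteins out of membranes and complexes, was at 227, 209, 243 and 255 CPM in controls and 258, 289, 320.3 and 340.4 CPM in Sirt1-deleted libraries. All Sirt1-deleted libraries were above all controls (0.37 ± 0.12, edgeR adjusted p = 0.180). Its membrane cofactor Faf2 was at 34.5 ± 14.0 and 59.2 ± 5.51 CPM, with groups that did not overlap (0.78 ± 0.29, adjusted p = 0.228). Among all genes tested, 6.64% were separate and higher. The median of this list turned to 0.013 without control 1 and was -0.18 with the length and GC trend removed.

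Ubiquitin genes and enzymes of ubiquitin transfer had 9 of 13 negative values, a median of -0.14, and 3 lower at an unadjusted p under 0.05. The conjugating enzyme Ube2d3 was at 249 ± 14.5 and 180.0 ± 24.8 CPM (-0.47 ± 0.12, edgeR adjusted p = 0.129) and Rps27a, a fusion of ubiquitin with a ribosomal protein, at 396 ± 47.8 and 281 ± 43.0 CPM (-0.50 ± 0.14, adjusted p = 0.146). Groups were separate for both. Of 9 genes that control proteasome and antioxidant transcription, 3 had negative values and the median was 0.21, which became -0.055 with the length and GC trend removed, 0.063 without control 1, 0.099 without Sirt1-deleted 3 and 0.13 without Sirt1-deleted 4. The NRF partner Mafg was at 90.8 ± 37.7 and 56.5 ± 9.08 CPM (adjusted p = 0.298) and Keap1, the adaptor that targets NRF2 for degradation, at 115 ± 24.6 and 93.3 ± 4.91 CPM (adjusted p = 0.429). Both overlapped between groups. Class I antigen presentation genes had 10 of 14 positive values and a median of 0.11, which became -0.0075 without control 2, 0.037 to 0.061 without control 3 or any of Sirt1-deleted 1, 3 and 4, and -0.033 without both libraries with the fewest detected genes. The peptide transporter Tap2 was at 353, 259, 333 and 208 CPM in controls and 531, 383, 377 and 364 CPM in Sirt1-deleted libraries, all above the controls, as for 6.64% of all genes (0.52 ± 0.20, adjusted p = 0.241).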

How the data were processed

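RNA of sorted LSK cells was amplified with SMARTer and Nextera XT kits, per the labels' protocols, which do not mark strand. Per the submitters' processing notes, the authors used STAR 2.5.3, HTSeq 0.9.1, Trim Galore 0.5.0 and bcl2fastq 2.18.0.12 with build GRCm38, without roles or settings. The deposited values are whole-number read counts per gene, not normalized. The 5 summary lines (reads not counted for any gene), 33.2 to 40.6% of each column, were left out. Of 48795 gene IDs, 48349 (99.1%) were named and measured for length from GENCODE on GRCm38.

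Counts were fitted for all 8 libraries with edgeR 4.0.16 (quasi-likelihood test, TMM, filterByExpr, two-sided, Benjamini-Hochberg over 14178 genes, called at an adjusted p under 0.05) in R 4.3.3. Alternatives used DESeq2 1.42.0 and limma-voom 3.58.1. CPM used TMM-scaled totals. The fits were tested on simulated data whose planted changes were larger than those of any member in edgeR with all libraries. Whether they find changes of the members' size was not tested. Biological variation was high over all genes tested (common coefficient 0.653), a value that does not describe the members alone.

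Members and lists were chosen with earlier results of these data known. Genes given in full were, in each part, the 3 smallest p-values, plus the immunoproteasome genes with their counterparts, the activators and the 2 smallest p-values per list; others were named after their values were seen. Of the cell type markers, 2 are not reported here. Titles start with 1 or 2 in controls and with 3 or 4 in Sirt1-deleted libraries, so whatever the digit marks cannot be told apart from genotype.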

Additional observations from a re-analysis of the deposited data

Results flagged for a closer look

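Within a group of 4, a library was singled out where its gap to the nearest other library, divided by the range, exceeded Dixon's 95% critical value. This held for 11 of the 90 combinations checked, where chance gives about 1 in 20 for independent values. The combinations come from the same 8 libraries and are not independent, so the 2 rates cannot be compared strictly. Sirt1-deleted 1 was the library for 7 genes. It was above the other Sirt1-deleted libraries for Psmb8 (1009 CPM), Psmb10 (669.5 CPM), Psmb6 (881 CPM) and Psma3 (205 CPM). It was below them for Psmc2 (138 CPM), Psmd13 (150.2 CPM) and Psme2 (325 CPM). Control 2 was below the other controls for Psmb4 (342 CPM) and Psmb9 (324 CPM) and above them for Psmd9 (178 CPM), and control 1 was below them for Psmc4 (316 CPM). Sirt1-deleted 1 and control 2 also had the fewest detected genes of all libraries, and whether this plays a part was not tested.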

How the results depend on the processing

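Under 15 alternatives, 34 of the 42 tested members kept the sign of their log2 fold change and 33 were lower in every one. The number called lower, 0 in edgeR, was 13 in DESeq2, 15 in limma-voom, 6 without both libraries with the fewest detected genes, and 0 to 9 when leaving out 1 library, the 9 coming without Sirt1-deleted 1. Limma-voom also moved the median of all genes from 0.06 to 0.17. The 24 members lower at an unadjusted p under 0.05 became 14 with the length and GC trend removed and 14 with titles starting with 2 and 4 only. Removing that trend gave medians of -0.21 for all members, -0.17 for alpha and -0.28 for beta. It gave -0.22 for all core genes and also -0.22 for the regulatory particle. The beta median was -0.51 in limma-voom and -0.53 without both libraries, and the non-ATPase median -0.29 without both and -0.089 with those titles. Leaving out 1 library gave medians of -0.41 to -0.29 for all members, -0.57 to -0.39 for beta, -0.53 to -0.32 for immunoproteasome and -0.30 to -0.14 for non-ATPase genes. Signs turned for genes near 0. The Psma1 log2 fold change was 0.014 without the filter, 0.10 with the trend removed, 0.13 with those titles and -0.12 to 0.16 leaving out 1 library. The Psma4 log2 fold change was 0.0419, 0.0453 and -0.23 to 0.080 under the last 3 of these. The Psma8 log2 fold change was 0.34 in limma-voom, 0.21 without both libraries and -0.66 to 0.20 leaving out 1. With the trend removed the Psmd1 log2 fold change was -0.18, the Psmd10 log2 fold change 0.30 and the Sirt3 log2 fold change -0.0182, and the last was -0.00557 with those titles. Leaving out 1 library gave -0.13 to 0.14 for Psmd1, -0.19 to 0.020 for Psmd10, -0.068 to 0.23 for Psmd11, -0.011 to 0.17 for Psmd2, -0.021 to 0.26 for Sirt3 and -0.12 to 0.36 for Psme4. The cause of these shifts was not tested.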
